A study of Mus musculus with 10 samples.

Results

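The 37 genes described here encode the proteins of the muscle contractile apparatus and their nonmuscle relatives. They are the troponins, the myosin light and heavy chains with 2 light chain kinases, the muscle actins, the tropomyosins, and the proteins of the Z-disc, the M-band and the titin filament. They were taken by symbol from a table of 55487 genes, with no minimum level. The list was selected on these same libraries, because 2 of its genes, Tnnc1 and Myl4, fell strongly, and the question was whether the other 35 followed. The values of Tnnc1 and Myl4 are therefore a description and carry no test.

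The study measured RNA of the mouse cerebral cortex at postnatal day 18 with bulk RNA sequencing. In the animals called Usp7 cKO, floxed Usp7, the gene of a deubiquitinase, was deleted by NEX-cre, a driver active in glutamatergic neurons, and their comparison group is called Usp7 WT. Animals of both groups also carried 1 mutant copy of Trp53 (Trp53+/-), so no group with intact Trp53 is compared here. Each group has 5 animals, 1 library per animal, and the labels speak of litter- and sex-matched pairs without naming them. Glia, vessels, meninges and GABAergic neurons of the same tissue are outside the driver's reach and are in every library.

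In striated muscle, thick filaments of myosin pull on thin filaments of actin that are anchored at the Z-disc. Calcium binding to troponin C shifts tropomyosin along the thin filament and opens the myosin sites, with troponin I as the inhibitory and troponin T as the tropomyosin-binding subunit. Smooth muscle and other cells lack troponin and start contraction by phosphorylating the myosin regulatory light chain. Neurons use nonmuscle myosin and many tropomyosin isoforms in growth cones and dendritic spines, and vessel walls in the brain hold smooth muscle cells and pericytes.

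The shallowest library held 42628526 exon bin counts and the deepest 51797145. Usp7 itself lay between 48.3 and 61.9 TPM in the Usp7 WT animals, and 31.6 and 40.9 TPM in those called Usp7 cKO. TPM is transcript abundance scaled by transcript length and library total. Xist or Ddx3y went against the labelled sex in 2 libraries, Usp7 WT replicate 2 and Usp7 cKO replicate 1, and the main counts are given with and without them. Usp7 cKO replicate 3 stood apart in several vessel-wall genes, described with those genes. Of 12 skeletal muscle markers, 2 stayed under 0.5 TPM in every library, Ckm (0.135 to 0.422 TPM), the muscle creatine kinase, and Myoz1 (0 to 0.219 TPM), a Z-disc gene. Of 10 cardiac markers, 4 did, among them Csrp3 (0 to 0.095 TPM), and none of either list was at 0 everywhere. The others were detected, with Pvalb, also a marker of interneurons, at 20.7 to 61.9 TPM and Tcap at 6.92 to 21.8 TPM. The summed skeletal markers ran from 77.8 to 98.5 TPM among Usp7 WT libraries, against 47.8 to 73.4 TPM among Usp7 cKO libraries. The cardiac ones ran from 23.1 to 32.2 against 14.5 to 19.4 TPM. Pvalb and Tcap made up most of the skeletal sum, and Tcap, in both lists, was the largest part of the cardiac sum. In the fit described next, 9 skeletal markers were tested, of which Tcap and Pvalb fell and Casq1 rose (median log2 change 0.06). Of 5 cardiac markers tested, Tcap and Mybpc3 fell and none rose (median -0.25). The skeletal sum thus does not stand for its list as a whole.

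Of the 37 genes, 31 had a mean of at least 0.5 TPM over the 10 libraries and entered the fit across 27580 genes (limma on log2(TPM + 0.5), labelled sex as covariate, Benjamini-Hochberg adjustment, two-sided, threshold 0.05). Beside Tnnc1 and Myl4, 29 genes were tested. Myl3, past the threshold too, reached the minimum only through Usp7 cKO, the group where it is high, and is left out of the counts. Of the other 28, 1 fell, Mylk3, against 4.67% of all genes tested that fell. Another 2 rose, Myh7b and Acta1, against 9.22% of all genes tested that rose. The remaining 25 did not pass the test. The members' shares of 3.57% and 7.14% lie near those of all genes and are no result about the list as a whole. The median change of the 28 was 0.15 on the log2 scale, beside 0.06 for all genes tested, and 21 of them had a positive value. With a median above 0, most of all genes tested had a positive value too. Their exact share was not counted, so the 21 are no result about the list. The counts were again 1 lower and 2 higher without both libraries of discordant sex, and also without Usp7 cKO replicate 3.

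**Figure D1:**
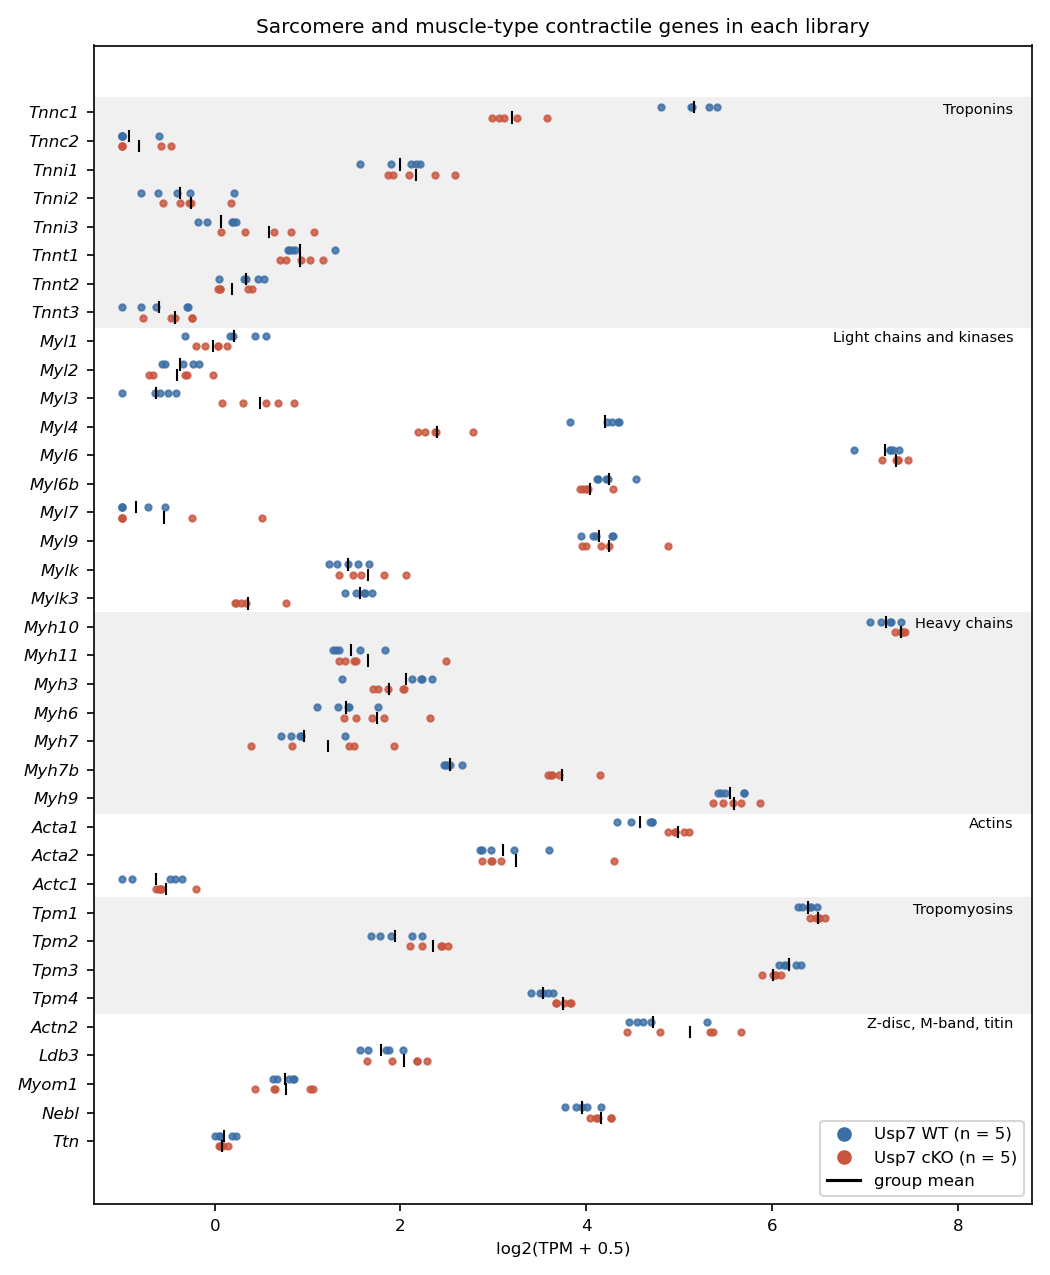
Each point is 1 library, with the level on the horizontal axis as log2(TPM + 0.5), Usp7 WT in blue and Usp7 cKO in red, and a black tick at the group mean. The 37 genes are ordered by role, and Tnnc1, Myl4 and Mylk3 are the genes whose Usp7 cKO points all lie below the Usp7 WT points.

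The same test on edgeR counts, with the bin counts of each gene summed, called more genes in the whole table and among the members. It called 4 of the 30 other members lower (Mylk3, Tnnt2, Tpm3 and Myl6b), where 13.9% of all genes were lower. It called 7 higher (Myl3, Myh7b, Acta1, Tpm2, Tnni3, Myh6 and Nebl), where 14% of all genes were higher. Myl3 averaged 6.2 bin reads per library across Usp7 WT, under the minimum of 10, but 36.8 across Usp7 cKO. It thus entered this test only through the group where it is high. Its call is not taken as a result, although the 7 include it. Mylk3, Myh7b and Acta1 were called by both tests. A read that spans several bins counts in each, and bins have no length scaling, so the 2 tests do not measure the same quantity.

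**Figure D2:**
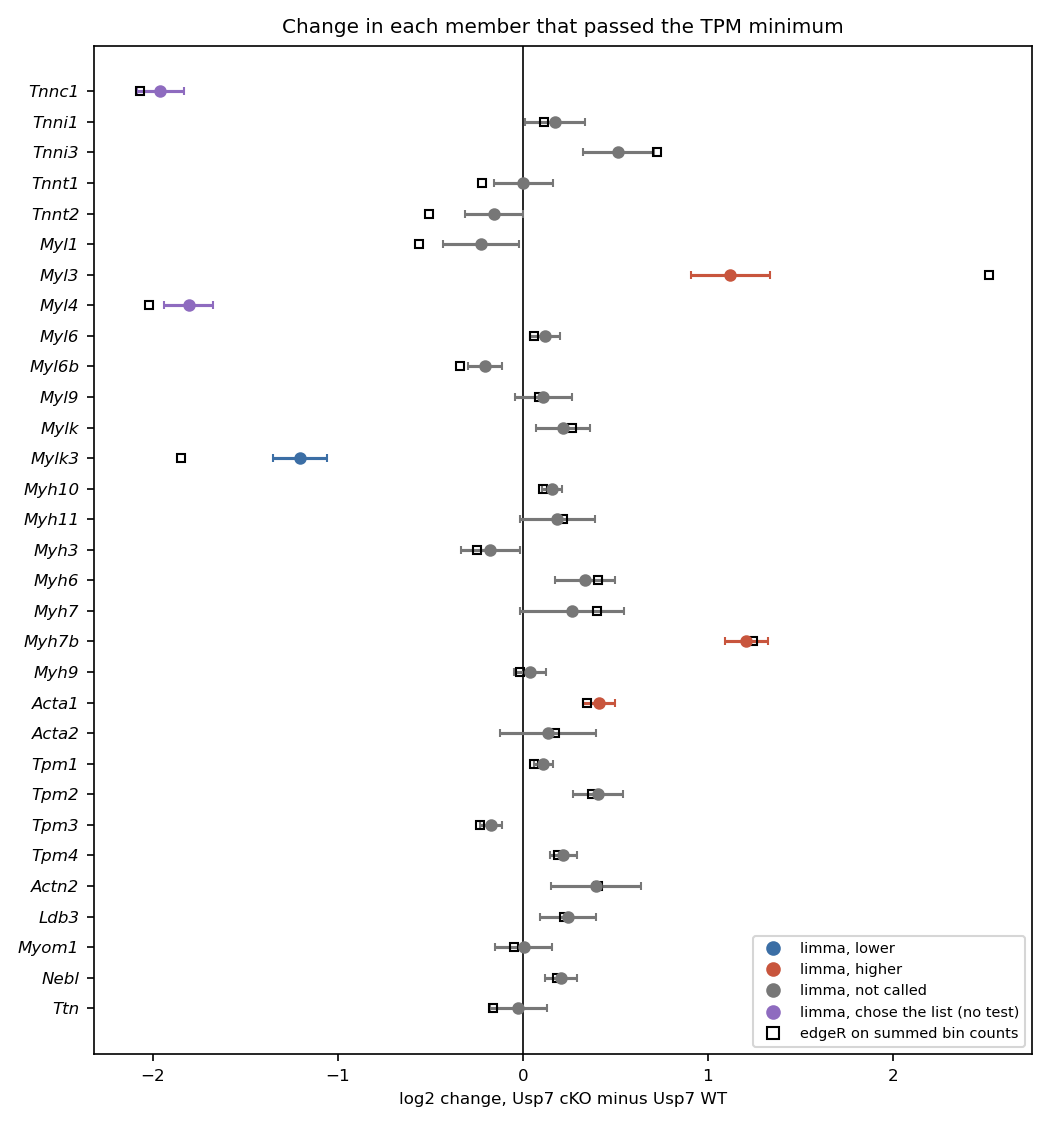
The horizontal axis is the log2 change, Usp7 cKO minus Usp7 WT, for the 31 members that passed the minimum. Filled circles with bars are the limma change and its standard error, open squares the change from edgeR on summed bin counts. Tnnc1 and Myl4 lie near -2, Mylk3 at -1.21, Myl3 at 1.12 and Myh7b at 1.21, and most other members lie within 0.5 of 0.

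Tnnc1, troponin C of slow skeletal and cardiac muscle, lies at chr14:31208312-31211729 on the plus strand of GRCm38. Its levels in Usp7 WT were 41.9, 34.4, 34.7, 27.5 and 39.4 TPM, and in Usp7 cKO 9.07, 11.4, 7.42, 8.15 and 7.83 TPM. The groups did not overlap, and the Usp7 WT mean was 4.05 times the Usp7 cKO mean. The log2 change was -1.96 with a standard error of 0.129. The fall ran through the whole gene: the 8 exon bins with a mean of at least 10 reads were all lower in every Usp7 cKO library than in any Usp7 WT library, by 3.48 to 4.58 times in CPM (bin reads scaled to the library's total bin count). Tnnc1 lies within Nisch, a gene on the opposite strand, which stood at 189 ± 5.56 and 192 ± 8.49 TPM (SD, n = 5 each).

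The RefSeq start of Tnnc1 coincides with the first exon bin that holds its reads, so the promoter sequence at that start is shown. It runs from 250 bases before the start to 50 after it, at chr14:31208062-31208361 on the plus strand of GRCm38.p6 (RefSeq), with capitals for 2 copies of CAGATG and 1 of TATATA.

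Tnnc1 promoter: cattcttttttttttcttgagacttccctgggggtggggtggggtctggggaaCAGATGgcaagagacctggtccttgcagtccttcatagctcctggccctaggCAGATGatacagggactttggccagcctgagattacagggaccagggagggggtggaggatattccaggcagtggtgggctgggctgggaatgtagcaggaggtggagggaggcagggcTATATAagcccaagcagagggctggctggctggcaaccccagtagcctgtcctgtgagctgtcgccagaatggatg

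CAGATG is 1 form of the E-box (CANNTG), the element of bHLH factors. Both strands were searched: CAGATG was in 17.2% of 32817 RefSeq promoters of the same length, CANNTG in 72.3% and TATATA in 5.67%. These are matches of letters in 300 bases, not measured binding sites. Neither the MEF2 motif (in 3.19% of promoters) nor the CArG box (in 1.63%), elements known from muscle genes, had a match in this window. Of the 37 genes, 34 had a promoter in the table, of which 6 held CAGATG, 1 the MEF2 motif and 9 the CArG box. These are counts of genes with a match in any of their promoters, while the percentages are of single promoters, so they are not on the same footing.

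Myl4, the essential light chain of atrial and embryonic muscle, lies at chr11:104550663-104595753 on the plus strand. It stood at 19.7, 18.1, 19.9, 13.7 and 18.9 TPM in Usp7 WT and at 4.66, 4.73, 6.35, 4.29 and 4.05 TPM in Usp7 cKO. The groups were again separate, with a Usp7 WT mean 3.75 times the Usp7 cKO mean (log2 -1.81, standard error 0.130). Of its 11 bins with a mean of at least 10 reads, 9 were lower in every Usp7 cKO library, and the ratio of means ran from 2.01 to 4.25. The first annotated exon, from 104550663, had 1.2 reads per library in Usp7 WT and 1.0 in Usp7 cKO, while the exon from 104577421 to 104577574 had 96.0 and 21.6. The RefSeq promoter at 104550663 is therefore not printed.

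Markers of glutamatergic neurons moved with these falls. Of 21 tested, 13 fell and 1 rose, with a median of -0.33. Their summed TPM ran from 8188 to 9533 among Usp7 WT libraries and from 4864 to 5970 among Usp7 cKO libraries. Nrgn alone, with group means of 4640 and 2391 TPM, was the largest part of that sum and of its drop. The size of the drop in the sum therefore does not stand for the list as a whole. Slc17a7, the vesicular glutamate transporter, had means of 1429 and 1091 TPM. Markers of GABAergic neurons, outside the driver's reach, were lower in sum as well, at 1859 to 2034 TPM among Usp7 WT libraries against 1623 to 1824 TPM among Usp7 cKO libraries. Of the 14 tested, 3 fell (Cck, Npy and Pvalb) and none rose, and the median change was 0.08. The sum was mostly that of the peptide genes Sst, Cck and Npy. Their means were 601, 588 and 332 TPM in Usp7 WT and 530, 492 and 265 TPM in Usp7 cKO. Gad1 had means of 89.1 and 86.4 TPM, Gad2 of 75.1 and 79.4 TPM, and Slc32a1 of 110 and 118 TPM. In bulk tissue, fewer cells of a type and less RNA per cell cannot be told apart, and the part of these markers in the falls was not tested.

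The other troponins did not share the fall of Tnnc1. Tnnt1, troponin T of slow muscle, stood at 1.40 ± 0.306 TPM in Usp7 WT and 1.40 ± 0.248 in Usp7 cKO (SD, n = 5 each), a log2 change of 0.00 with a standard error of 0.159. Tnni1, the slow troponin I, lay between 2.46 and 4.13 TPM in Usp7 WT, and between 3.15 and 5.51 TPM in Usp7 cKO. Tnnt2, the cardiac troponin T, was at 0.774 ± 0.160 and 0.644 ± 0.146 TPM (limma adjusted p = 0.570). In summed bin counts Tnnt2 was lower (log2 -0.51, edgeR adjusted p = 0.0110).

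Tnni3, the cardiac troponin I, stood at 0.636, 0.444, 0.677, 0.382 and 0.649 TPM in Usp7 WT and at 0.757, 1.27, 1.06, 0.550 and 1.60 TPM in Usp7 cKO. The groups overlapped through Usp7 cKO replicate 4, and the limma test was not passed (log2 0.52, standard error 0.191, adjusted p = 0.106). EdgeR called it higher (log2 0.73, adjusted p = 0.0401). Its 5′ end overlaps Dnaaf3 on the same strand by 1297 bases, and Dnaaf3 rose from 0.527 ± 0.413 to 1.97 ± 0.231 TPM (log2 1.34, limma adjusted p = 0.00446), so the share of reads that belongs to each gene was not tested. The 3 fast-muscle troponins were under the minimum. Tnnc2 was at 0 in 7 libraries and at most 0.222 TPM, Tnnt3 lay between 0 and 0.343 TPM, and Tnni2 between 0.0752 and 0.659 TPM.

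Among the myosin light chains and their kinases, Mylk3 fell, and Myl3 was higher in every Usp7 cKO library than in any Usp7 WT library. Mylk3, the cardiac myosin light chain kinase, lies at chr8:85324303-85386345 on the minus strand. Its levels were 2.74, 2.38, 2.55, 2.14 and 2.57 TPM in Usp7 WT and 0.761, 0.714, 1.20, 0.669 and 0.662 TPM in Usp7 cKO. Every Usp7 cKO library was below every Usp7 WT library, with Usp7 cKO replicate 3 above the other 4 of its group. The limma log2 change was -1.21 with a standard error of 0.146 (adjusted p = 0.000499), and with counts the change was -1.85 (edgeR adjusted p = 1.61e-07). The gene is thinly read, with 34 to 173 bin reads per library. Over the other alternatives the limma or count call held in 21 of 21, with adjusted p-values up to 0.00625.

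Myl3, the essential light chain of ventricular and slow skeletal muscle, lies at chr9:110741861-110769798 on the plus strand. It stood at 0, 0.140, 0.248, 0.165 and 0.207 TPM in Usp7 WT and at 0.731, 0.966, 1.103, 0.555 and 1.30 TPM in Usp7 cKO. The groups did not overlap, but the gene passed the minimum of 0.5 TPM only through Usp7 cKO, so no test is drawn from that fit. In the fit with no minimum, the log2 change was 1.12 (limma adjusted p = 0.00568), on 0 to 60 bin reads per library. The size depends on the scale: it was 0.74 with a pseudocount of 1, 2.10 with 0.1, and 2.52 in edgeR. With a minimum of 1 TPM, and without Usp7 cKO replicate 2, 3 or 5, its mean lay under the minimum.

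Pth1r, the parathyroid hormone receptor gene on the opposite strand, overlaps the first exon of Myl3 and rose from 10.2 ± 0.657 to 50.3 ± 4.14 TPM (SD, n = 5 each; log2 2.25, limma adjusted p = 3.56e-08). That shared first exon of Myl3, 110741861 to 110742038, had a mean of 0.4 reads per library in both groups. The exon from 110767908 to 110768081, which Pth1r does not reach, had 2.0 in Usp7 WT and 7.4 in Usp7 cKO.

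The other light chains showed no call in limma. Myl6, the essential light chain of smooth muscle and nonmuscle myosin, was the most abundant at 150 ± 18.6 and 162 ± 11.2 TPM (SD, n = 5 each). Myl6b, its close relative from the neighbouring locus, was at 18.6 ± 2.41 and 16.0 ± 1.71 TPM (log2 -0.20, limma adjusted p = 0.180), and lower in edgeR (log2 -0.34, adjusted p = 0.00852). Myl1, the fast skeletal essential chain, was at 0.677 ± 0.254 and 0.488 ± 0.0899 TPM. Mylk, the smooth muscle kinase, ranged over 1.85 to 2.67 TPM in Usp7 WT, and over 2.02 to 3.67 TPM in Usp7 cKO. Myl2 and Myl7, the ventricular and atrial regulatory chains, were under the minimum, at 0.111 to 0.491 and 0 to 0.927 TPM.

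Myh7b, a sarcomeric myosin heavy chain gene that hosts Mir499, showed the rise with the smallest p among the members. It lies at chr2:155611212-155634307 on the plus strand. Its levels were 5.08, 5.05, 5.83, 5.14 and 5.28 TPM in Usp7 WT and 11.9, 12.5, 17.2, 11.5 and 11.8 TPM in Usp7 cKO. The groups were separate and the Usp7 WT libraries close together, while Usp7 cKO replicate 3 was above the rest of its group. The Usp7 cKO mean was 2.46 times the Usp7 WT mean (log2 1.21, standard error 0.116, limma adjusted p = 0.000116). Leaving out 1 library at a time gave log2 changes of at most 1.26, and the call held each time.

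The reads of Myh7b lay in the 3′ part of the gene. The first 22 of its 45 bins held 38, 45, 19, 36 and 22 reads in Usp7 WT and 22, 34, 34, 36 and 43 in Usp7 cKO, with overlapping groups. The other 23 bins held between 327 and 437 reads in the Usp7 WT libraries, and between 825 and 1212 in those of Usp7 cKO. The first bins thus had 7.62 ± 2.45% of the gene's reads in Usp7 WT and 3.38 ± 0.747% in Usp7 cKO (SD, n = 5 each). A test of the 5′ against the 3′ bins of each gene, added after these counts were seen, called 15 of 14708 genes (0.102%). It gave an adjusted p of 0.142 for Myh7b (edgeR, log2 -0.82 for the 5′ bins) and called none of the 27 members tested beside Tnnc1 and Myl4, Myh7b among them. At an unadjusted p under 0.05 it counted 4 members, Myh7b, Ttn, Mylk and Tnnt1, where 0.904% of all genes were so. Mylk passed without Usp7 WT replicate 4, and Ttn without Usp7 cKO replicate 1. A small 5′ share was not particular to Myh7b. In Usp7 WT the 5′ bins held 1.52 ± 1.44% of the reads of Myh6, 3.28 ± 2.03% of Myl9, 4.37 ± 0.812% of Myh3 and 6.05 ± 1.47% of Acta1 (SD, n = 5 each).

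**Figure D3:**
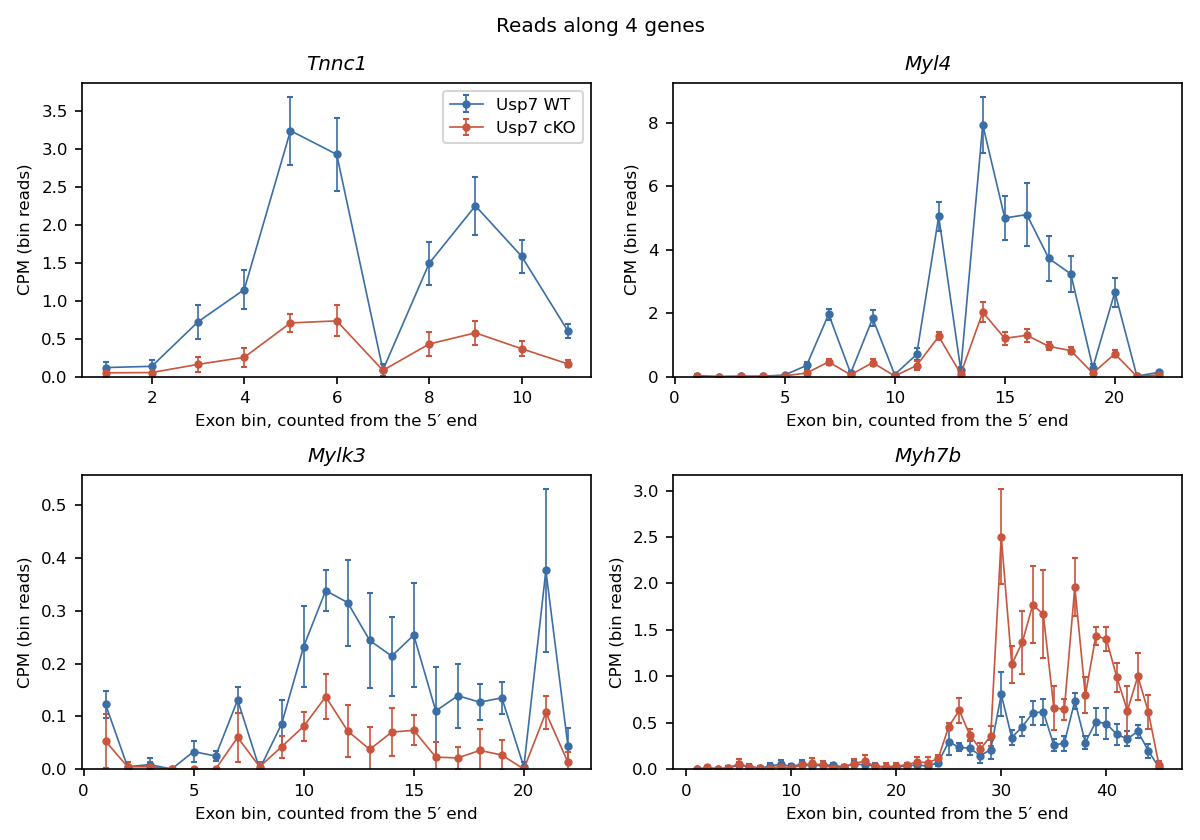
Each panel plots CPM against the number of the exon bin from the 5′ end, as the mean of 5 libraries with its SD, Usp7 WT in blue and Usp7 cKO in red. In Usp7 cKO the mean is lower in all bins with a mean of at least 10 reads of Tnnc1 (8 of 11 bins), Myl4 (11 of 22) and Mylk3 (2 of 22). Myh7b is higher in Usp7 cKO from about its bin 25 on.

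Of the other heavy chains, none was called by limma. Myh6 and Myh7, the alpha and beta cardiac heavy chains, stood at 2.20 ± 0.454 and 2.95 ± 0.920 TPM and at 1.47 ± 0.396 and 1.99 ± 0.972 TPM in Usp7 WT and Usp7 cKO (SD, n = 5 each). They are neighbours and close in sequence, so reads between them are uncertain, and edgeR called Myh6 higher (log2 0.40, adjusted p = 0.0403). Myh3, the embryonic heavy chain, was at 3.77 ± 0.977 and 3.20 ± 0.391 TPM. Myh9, nonmuscle heavy chain IIA, was at 46.6 ± 4.43 and 48.1 ± 6.70 TPM. Myh10, nonmuscle heavy chain IIB, which prevails in neurons, was at 150 ± 13.1 and 168 ± 4.80 TPM (log2 0.16, standard error 0.0546, limma adjusted p = 0.0834). Without Usp7 WT replicate 5, its adjusted p was 0.0393.

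The smooth muscle members were highest in 1 library. Acta2, smooth muscle actin, stood at 11.6, 6.85, 7.34, 6.74 and 8.85 TPM in Usp7 WT and at 7.95, 7.43, 19.2, 7.36 and 6.83 TPM in Usp7 cKO. Only Usp7 cKO replicate 3 rose above the Usp7 WT range. The same library had the highest Myh11, the smooth muscle heavy chain, at 5.11 TPM against 1.92 to 3.07 TPM in the other 9 libraries, and the highest Myl9, the smooth muscle regulatory light chain, at 29.0 against 14.9 to 19.0 TPM. It also had the highest sum of 14 mural cell markers, 209 TPM against 149 to 187 TPM. Of that list, Tagln, Cnn1, Rgs5, Kcnj8, Higd1b and Myocd were not highest in it. The sum of 10 endothelial markers was highest in it too, at 223 TPM against 132 to 187 TPM. The limma adjusted p was 0.778 for Acta2, 0.599 for Myh11 and 0.689 for Myl9, and without that library the log2 changes were -0.11, 0.00 and -0.04. Of the 13 mural markers tested, 1 rose (Des) and none fell, and all 14 were detected.

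Actn2 and Myh7 are given beside another set of markers. Actn2, the alpha-actinin of the Z-disc that also occurs at synapses, stood at 25.4, 21.6, 23.9, 22.9 and 38.8 TPM in Usp7 WT and at 40.7, 27.3, 21.1, 39.8 and 50.3 TPM in Usp7 cKO. The groups overlapped widely (log2 0.40, standard error 0.244, limma adjusted p = 0.327). The sum of 16 markers of striatum, hippocampus and thalamus was 416, 380, 401, 467 and 624 TPM in Usp7 WT and 709, 468, 370, 676 and 817 TPM in Usp7 cKO. Usp7 WT replicate 5 and Usp7 cKO replicates 1, 4 and 5 had the 4 highest values of both that sum and Actn2. Those 4 libraries were also the highest in Drd1, Drd2, Adora2a, Ppp1r1b and Rgs9, striatal genes of the list. Other genes of the list did not share this order: Prox1, Dsp, Fibcd1, Prkcd and Tcf7l2 were highest in Usp7 cKO replicate 3, where Actn2 was lowest. The same 4 libraries had the highest Myh7, at 2.15, 2.33, 2.23 and 3.30 TPM. Of the 15 such markers tested, 2 rose (Prkcd and Calb2) and none fell, and Dsp, at 0.230 to 0.532 TPM in Usp7 WT against 3.20 to 6.32 TPM in Usp7 cKO, passed the minimum only through Usp7 cKO and is not counted. The part of these markers in the levels of Actn2 and Myh7 was not tested.

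**Figure D4:**
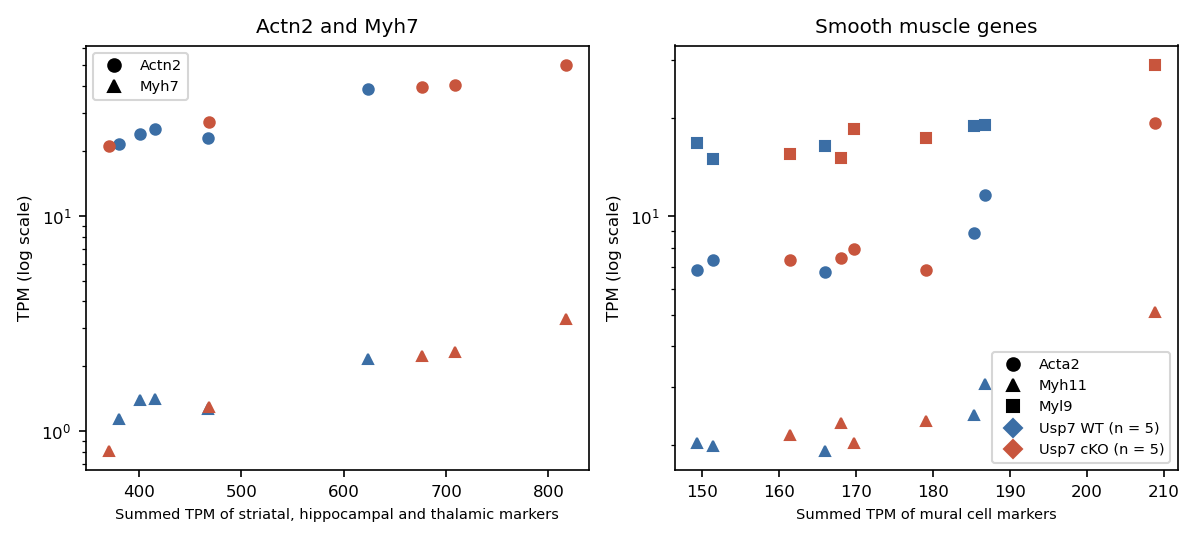
Left, Actn2 and Myh7 in TPM on a log axis against the summed TPM of striatal, hippocampal and thalamic markers. Right, Acta2, Myh11 and Myl9 against the summed TPM of mural cell markers. Each point is 1 library, and the library at the far right of the right panel is Usp7 cKO replicate 3.

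Acta1, the skeletal muscle actin, rose by a small amount. It lies at chr8:123891769-123894751 on the minus strand and stood at 25.3, 25.7, 25.6, 21.9 and 19.6 TPM in Usp7 WT and at 30.5, 29.0, 34.0, 32.7 and 30.7 TPM in Usp7 cKO. All Usp7 cKO libraries were above all Usp7 WT libraries, and the ratio of means was 1.33 (log2 0.41, standard error 0.0868, limma adjusted p = 0.0115). Its coding sequence resembles those of the other actins, so reads from the much more abundant cytoplasmic actins can be counted there, which was not tested. Few reads lay in the 5′ part of Acta1. The first 4 of its 8 bins held 6.05 ± 1.47% of the gene's reads in Usp7 WT and 5.86 ± 1.65% in Usp7 cKO (SD, n = 5 each). Of its 5 bins with a mean of at least 10 reads, 2 were higher in every Usp7 cKO library than in any Usp7 WT library. Actc1, the cardiac actin, was under the minimum at 0 to 0.367 TPM.

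Beside Tnnc1, Myl4 and Myl3, separate groups with Usp7 cKO above were found for 3 of the 28 members tested, Myh7b, Acta1 and Tpm4, where 8.19% of all genes tested were so. Separate groups with Usp7 cKO below were found for 1, Mylk3, where 4.58% of all genes were.

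The 4 tropomyosins, which lie along the actin filament, were not called by limma at the gene level. Tpm4 lay between 10.1 and 11.9 TPM in Usp7 WT, and between 12.2 and 13.8 TPM in Usp7 cKO (log2 0.22, adjusted p = 0.0742), Tpm2 at 3.39 ± 0.627 and 4.62 ± 0.583 TPM (log2 0.40, adjusted p = 0.0767), and Tpm3 at 72.5 ± 5.01 and 64.2 ± 3.38 TPM (log2 -0.17, adjusted p = 0.0774; SD, n = 5 each). In edgeR, Tpm3 was lower (adjusted p = 0.000479) and Tpm2 higher (adjusted p = 0.0430). Tpm1 was at 83.1 ± 4.54 and 89.7 ± 3.57 TPM (log2 0.11, limma adjusted p = 0.187).

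Within Tpm1, the use of exons changed. Of 23 other members tested for exon usage, Tpm1 alone was called (edgeR diffSpliceDGE, Simes adjusted p = 1.11e-05), where 2.85% of 13954 genes were called. Tpm1 has 2 first exons with separate promoters, 1a for the long and 1b for the short proteins, and between them the exons 2a and 2b, of which a long transcript usually carries 1. Exon 2a is known from smooth muscle and exon 2b from striated muscle and most other tissues. The gene lies at chr9:67022590-67049406 on the minus strand of GRCm38. The coding parts of the first exons and the whole of exons 2a and 2b are shown because their read shares are what changed. They were read from the GENCODE M21 transcripts, 5′ to 3′. Capitals mark the start codon in exons 1a and 1b, and in exons 2a and 2b the positions at which they differ.

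Tpm1 exon 1a, coding part (chr9:67049019-67049132): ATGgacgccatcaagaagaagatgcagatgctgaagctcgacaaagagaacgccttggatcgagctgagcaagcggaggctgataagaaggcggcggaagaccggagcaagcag
Tpm1 exon 2a (chr9:67048124-67048249): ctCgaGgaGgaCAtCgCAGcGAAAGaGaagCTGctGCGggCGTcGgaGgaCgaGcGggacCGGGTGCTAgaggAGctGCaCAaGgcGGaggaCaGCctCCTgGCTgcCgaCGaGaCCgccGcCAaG
Tpm1 exon 2b (chr9:67047786-67047911): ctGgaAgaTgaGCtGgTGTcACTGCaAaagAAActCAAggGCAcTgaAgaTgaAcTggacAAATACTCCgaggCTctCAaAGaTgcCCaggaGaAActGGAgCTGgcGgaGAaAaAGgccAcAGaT
Tpm1 exon 1b, coding part (chr9:67043578-67043709): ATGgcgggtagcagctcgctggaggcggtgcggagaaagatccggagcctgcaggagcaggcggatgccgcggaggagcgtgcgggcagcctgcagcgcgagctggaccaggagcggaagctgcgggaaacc

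Exons 2a and 2b have 126 bases each and share 60 of them in place, an identity of 47.6%. Reads can therefore be told apart between them.

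The exon 1a bin from 67049019 to 67049118 had 3.40, 3.47, 3.16, 3.77 and 3.13 CPM in Usp7 WT and 5.72, 5.95, 4.61, 6.85 and 5.81 in Usp7 cKO. The groups were separate, with a ratio of means of 1.71. Relative to the whole gene, its log2 change was 0.44 (edgeR adjusted p = 8.84e-06), and that of the exon 1a bin with the largest such change among those called, 67049173 to 67049186, was 0.56. Exon 2a was rare but rose as well, from 0.314 ± 0.0863 to 0.812 ± 0.219 CPM (SD, n = 5 each; relative log2 0.85, edgeR adjusted p = 0.000448). Exon 2b rose from 3.63 ± 0.234 to 5.35 ± 0.859 CPM (relative log2 0.29, edgeR adjusted p = 0.0226), a call that was lost in 8 of the alternatives. Exon 1b, the most read of the 4, stood at 15.8 ± 1.13 and 14.9 ± 0.969 CPM, with overlapping groups.

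Per base, exon 1a had 0.283 ± 0.0208 times the reads of exon 1b in Usp7 WT and 0.516 ± 0.0821 times in Usp7 cKO (SD, n = 5 each). The ratio in single libraries was 0.259, 0.277, 0.279, 0.316 and 0.283 in Usp7 WT and 0.507, 0.506, 0.390, 0.598 and 0.580 in Usp7 cKO. Usp7 cKO replicate 3, lowest in the summed striatal, hippocampal and thalamic markers, was also the lowest of its group here. Usp7 WT replicate 5, whose marker sum of 624 TPM lay within the Usp7 cKO range, had a ratio of 0.283, within the Usp7 WT range. These are single libraries, and the part of these markers in the ratio was not tested. In the authors' deposited table of exon usage, the log2 fold was 0.60 for the exon 1a bin (adjusted p = 2.35e-13), 1.20 for exon 2a (adjusted p = 0.00128) and 0.39 for exon 2b (adjusted p = 0.00219).

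Spliced reads that join exon 3 give a second reading of the same exons. Of the reads from exon 3 to exons 1b, 2b or 2a, those to exon 2b made up 18.2, 19.5, 19.1, 19.6 and 19.7% in Usp7 WT and 24.6, 25.7, 22.0, 30.3 and 33.2% in Usp7 cKO, on 598 to 801 reads per library. These groups were separate too, while the reads to exon 2a were few, 1 to 9 per library in Usp7 WT against 0 to 14 in Usp7 cKO, and overlapped. The test of intron usage across 10441 clusters was not passed after adjustment (edgeR, unadjusted p = 0.0338), and it called 0.22% of all clusters. It called none of 14 clusters of 7 members, of which this 1 had an unadjusted p under 0.05, as did 3.97% of all clusters.

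**Figure D5:**
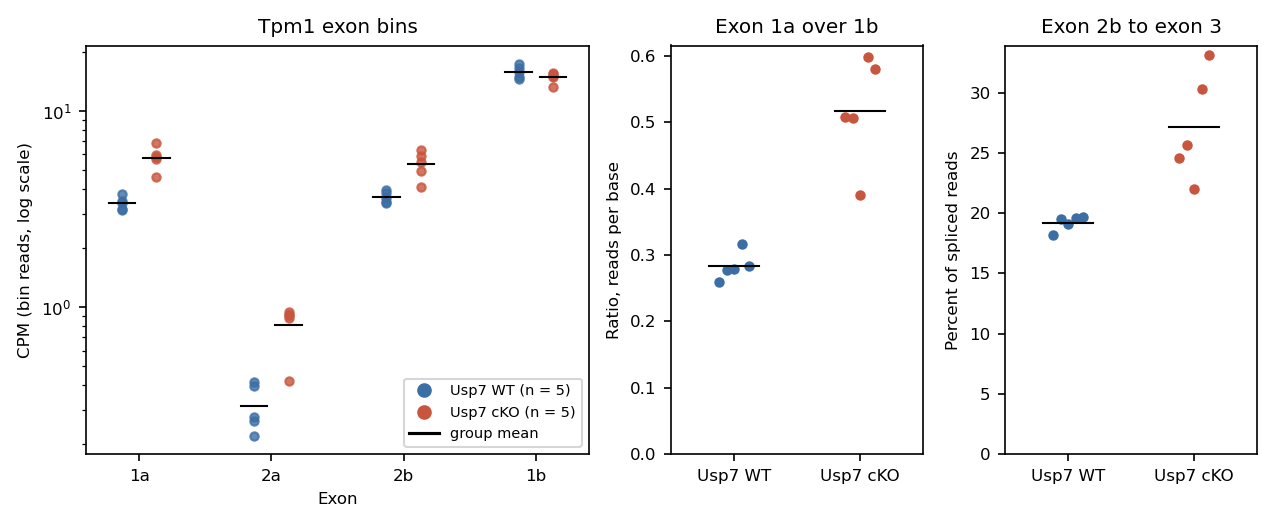
Left, CPM in the bins of Tpm1 exons 1a, 2a, 2b and 1b on a log axis, with 1 point per library and a line at the group mean. Middle, reads per base of exon 1a over exon 1b. Right, percent of spliced reads from exon 3 that go to exon 2b. Exons 1a, 2a and 2b are higher in Usp7 cKO, exon 1b overlaps, and both ratios are separate between the groups.

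The long transcripts of Tpm1 start at exon 1a, so the RefSeq promoter at that start is shown too, at chr9:67049164-67049463 on the minus strand of GRCm38.p6, with its 1 copy of TATATA in capitals.

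Tpm1 promoter: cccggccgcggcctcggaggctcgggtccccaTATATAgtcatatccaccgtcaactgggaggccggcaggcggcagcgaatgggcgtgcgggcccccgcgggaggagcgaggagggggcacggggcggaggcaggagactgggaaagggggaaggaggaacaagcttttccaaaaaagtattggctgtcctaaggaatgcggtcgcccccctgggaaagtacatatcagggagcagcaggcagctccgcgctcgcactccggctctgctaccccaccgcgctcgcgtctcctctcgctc

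This window held 1 CANNTG and no CAGATG, MEF2 or CArG match.

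Exon usage of the other members did not pass the test per gene. Myh3 had a Simes adjusted p of 0.0669 (edgeR) and Myl6 of 0.0767. Among single bins, 1 of Myl6 passed, chr10:128491348-128491719 on the minus strand, with 0.796 ± 0.141% of the gene's reads in Usp7 WT and 1.14 ± 0.252% in Usp7 cKO (SD, n = 5 each; relative log2 0.36, edgeR adjusted p = 0.0227), and its groups overlapped. In the authors' deposited table that bin had a log2 fold of 0.52 (adjusted p = 0.229), and the next bin of Myl6 one of 0.32 (adjusted p = 0.00199). Calls appeared when single libraries were left out: Myl6 without Usp7 WT replicate 4 (adjusted p = 0.0144), Myl6 and Tpm3 without Usp7 cKO replicate 1 (0.0375 and 0.0457), and Myh7 without Usp7 cKO replicate 3 (0.0145).

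The Z-disc, M-band and titin genes showed no call in limma. Nebl, nebulette of the cardiac Z-disc, was at 15.1 ± 1.58 and 17.5 ± 1.24 TPM (log2 0.21, limma adjusted p = 0.142), and higher in edgeR (adjusted p = 0.0151). Ldb3, a PDZ and LIM protein of the Z-disc, was at 2.99 ± 0.446 and 3.66 ± 0.713 TPM. Ttn, the giant protein that spans from Z-disc to M-band, was at 0.577 ± 0.0762 and 0.558 ± 0.0290 TPM, and Myom1, an M-band crosslinker, at 1.20 ± 0.117 and 1.22 ± 0.323 TPM (SD, n = 5 each).

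Outside the 37 genes, relatives of the contractile apparatus changed in both directions in the same fit. Of 35 other sarcomere and striated muscle genes tested, 5 rose (14.3%) and 4 fell (11.4%), beside 9.22% and 4.67% of all genes tested, with a median log2 change of 0.07. Flnc, muscle filamin, rose from 2.23 ± 0.225 to 6.64 ± 1.13 TPM (log2 1.37). Tcap, the titin cap at the Z-disc, fell from a range of 16.4 to 21.8 TPM to one of 6.92 to 11.4 TPM (log2 -1.13, limma adjusted p = 0.000585). Mybpc3, cardiac myosin-binding protein C, fell from 3.68 ± 0.669 to 1.66 ± 0.181 TPM (log2 -0.94; SD, n = 5 each).

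Calcium handling and energy genes of muscle gave 4 rises (20%) and 2 falls (10%) among 20 tested, beside 9.22% and 4.67% of all genes tested. Ryr1, the ryanodine receptor of skeletal muscle, rose from 3.81 ± 0.790 to 10.2 ± 2.26 TPM (log2 1.30, limma adjusted p = 0.000205), and Casq1, calsequestrin of the sarcoplasmic reticulum, from 1.56 ± 0.320 to 3.61 ± 0.988 TPM. Atp2a2, the calcium pump of the endoplasmic reticulum in many cell types, fell from 724 ± 37.4 to 529 ± 11.4 TPM (log2 -0.45, limma adjusted p = 8.51e-05). Of 28 smooth muscle and nonmuscle actomyosin genes, 4 rose and 4 fell (14.3% each), among them Smtnl2 (log2 1.06) and the neuronal Tagln3 (log2 -0.53).

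Among regulators of muscle genes, 7 of 17 passed the minimum, 3 fell and none rose, where 4.67% of all genes fell. Mef2c, a factor of muscle and of cortical neurons, fell from 188 ± 8.05 to 141 ± 12.7 TPM (log2 -0.42, limma adjusted p = 0.00206), Mrtfb, a coactivator of serum response factor, by 0.26 on the log2 scale and Mef2a by 0.19 (SD, n = 5 each). Each list was written with results of these libraries known, so its counts describe it and no more.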

How the data were processed

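RNA after removal of ribosomal RNA was sequenced, per the labels' protocols. Gene levels are the TPM that the authors deposited. Exon bin and intron values are raw read counts of DEXSeq bins and leafcutter clusters, per the deposited file headers. The bin table also holds the authors' log2 folds with their p-values. The submitters' processing notes name STAR 2.7.9a, SAMtools 1.10 and GRCm38; the counting strand is not given in the sources used here, so reads of overlapping genes on opposite strands cannot be told apart. All intron counts of Usp7 WT replicate 1 were even and were divided by 2 before use. In the TPM table, 287 repeated lines were counted 1 time. TPM keeps no depth; intron counts used summed to 3388310 to 4367711 per library.

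TPM was tested with limma 3.58.1 (trend, robust) in R 4.3.3 on log2(TPM + 0.5) with labelled sex as covariate. Changes on that scale are understated for low genes. Exon and intron usage were tested on the deposited counts with edgeR 4.0.16 (TMM, diffSpliceDGE, Simes p), for bins averaging 10 or more reads and introns averaging 5 or more. The test of 5′ against 3′ bins, split at the middle bin of each gene, was added after the counts of Myh7b and Acta1 were seen. The fits were tested on simulated data. The members, the gene lists and the tests were chosen with earlier results of these data known. All members are named; of the other lists, the text draws on the called genes with the smallest p, up to 4 in each direction. Some genes of these lists are not reported here. Positions come from GENCODE M21. Alternatives were other pseudocounts, minimums and scalings, edgeR and DESeq2 1.42.0 on summed bin counts, other covariates, a block, and leaving out libraries. Figures were drawn with matplotlib 3.10.9.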

Additional observations from a re-analysis of the deposited data

Results flagged for a closer look

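Among 64 groups of 5 libraries (members with at least 1 library at 0.5 TPM or above), 13 had a highest or lowest library whose gap to the nearest other exceeded 0.71 of the group's range; by chance about 1 in 20 groups would. Of these, 6 were high values in Usp7 cKO replicate 3, namely Acta2 at 19.2 TPM (the other 4 at 6.83 to 7.95), Myh11 at 5.11 TPM (2.03 to 2.37), Myl9 at 29.0 TPM (15.0 to 18.4), Myh7b at 17.2 TPM (11.5 to 12.5), Mylk3 at 1.20 TPM (0.662 to 0.761) and Myl6b at 19.0 TPM (14.8 to 15.7). Usp7 WT replicate 4 was lowest in its group for Myl4 at 13.7 TPM (18.1 to 19.9), Myl6 at 117 TPM (154 to 165) and Myh3 at 2.08 TPM (3.85 to 4.56). Usp7 WT replicate 5 was highest in its group for Actn2 at 38.8 TPM (21.6 to 25.4), Myh7 at 2.15 TPM (1.14 to 1.41) and Myl6b at 22.7 TPM (16.9 to 18.3). Usp7 WT replicate 2 was highest for Tnnt1 at 1.95 TPM (1.23 to 1.32).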

How the results depend on the processing

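Besides Tnnc1 and Myl4, the limma fit called 1 member lower. That count was 3 on rescaled TPM (Tpm3 and Myl6b added), 2 with Xist as covariate (Tpm3 added), 4 in edgeR and 4 in DESeq2 on summed bin counts, and 1 under the other alternatives, each omission of 1 library included. The count of 3 members higher, Myl3 included, was 7 in edgeR and 7 in DESeq2, each again with Myl3 included, and 2 to 4 when 1 library was left out. Mylk3, Myh7b and Acta1 were called under all 21 alternatives. Tnnc1 ranged from -2.08 to -1.88 and Myl4 from -2.03 to -1.72 on the log2 scale. The 26 calls among other muscle and actomyosin genes were 47 in edgeR, 47 in DESeq2 and 16 without both libraries of discordant sex, and 20 to 27 when 1 library was left out. The count for exon usage, 1 (Tpm1), was 1 to 3 when 1 library was left out and held in all 17 alternatives for Tpm1. The count for intron usage was 0 in each, and that for 5′ against 3′ bins 0 to 1 when 1 library was left out. The cause of these shifts was not tested.

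Rescaling moved the median log2 change of all genes from 0.06 to 0.01. With a replicate block on the number that ends each title, the counts were 1 lower and 3 higher, 31 other muscle and actomyosin genes, 1 for exon usage, 0 for intron usage and 0 for 5′ against 3′ bins. For the 3 pairs that title number and labelled sex single out, the correlations of deviations from the group means were 0.0781, 0.0156 and 0.0425, and the numbers were not taken as pairs. Of these pairs, Usp7 WT replicate 4 with Usp7 cKO replicate 1 and Usp7 WT replicate 2 with Usp7 cKO replicate 2 each hold a library of discordant sex. The correlations therefore cannot show whether the numbers mark litters. Thinly read members, such as Myl3 (0 to 60 bin reads per library) and Tnni3 (17 to 80), are limited by depth.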
